A study of Mus musculus with 32 samples.

Results

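Collagens are the triple-helical proteins of the extracellular matrix, and every gene of the family that the 4 expression tables name in the form Col, number, a, number was taken as a member. This gave 44 genes of the 33654 gene rows in each table: 8 fibrillar, 8 basement membrane, 6 cartilage (Col2a1, Col9a1, Col9a2, Col9a3, Col11a1, Col11a2) and 22 other collagens. The members were chosen by name and not by their values. Messenger RNA had been sequenced from 32 mouse libraries. Tumor cells, labelled as MMTV-PyMT breast cancer cells, were sampled at week 2 (early, n = 3), week 3 (middle, n = 4) and week 4 (late, n = 4) of tumor development, and CD8 T cells at the same weeks (n = 3 each). In MMTV-PyMT mice a mouse mammary tumor virus promoter, active mainly in mammary epithelium, drives the polyoma middle T oncogene. For the knockdown comparison, tumor cells and CD8 T cells (n = 3 for each of the 4 groups) came from xenografts of cells carrying shCTRL, with the genotype given as WT, or shMogat1, with the genotype given as Mogat1 knockdown. Mogat1 encodes a monoacylglycerol acyltransferase of triacylglycerol synthesis. Host strain, age, hairpin clones and pooling of animals are not given in the sources used here. Tumor libraries of all weeks carry the oncogene as labelled, the shCTRL and shMogat1 tumor cells carry the same cell line tag, and the CD8 T cells are labelled as taken from tumors. The labels do not say whether replicates came from separate animals, so p-values measure the spread between these libraries, which may be technical.

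Fibrillar collagens such as types I and III form the load-bearing cables of connective tissue and are made mainly by fibroblasts. Type IV collagens form the sheet-like network of basement membranes, on which mammary epithelium and vessels rest, and types XV and XVIII lie at the border of these sheets. Types II, IX and XI together build the thin fibrils of cartilage, in which type II is the main chain, type XI sits in the core and type IX coats the surface. The other members include the beaded filaments of type VI, the anchoring fibrils of type VII, the short-chain networks of types VIII and X, chains that attach to fibrils, and chains with a transmembrane segment.

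Promoter windows are shown for 5 genes, because Col9a2, Col9a1 and Col11a1 had the largest rises among the members called from week 2 to week 4 in tumor cells and because Col4a1 and Col4a2 start back to back and share promoter bases. Each window runs from 250 bases before to 50 bases after a RefSeq gene start (GRCm38.p6) and is written 5′ to 3′ on the strand of its gene. Capitals mark GGGCGG or its reverse complement CCGCCC, the GC box bound by Sp-type factors. The windows lie at chr1:24177360-24177659 on the plus strand (Col9a1, the outer of its starts in the table), chr4:121039316-121039615 plus (Col9a2), chr3:114030290-114030589 plus (Col11a1), chr8:11312777-11313076 minus (Col4a1) and chr8:11312555-11312854 plus (Col4a2).
Col9a1: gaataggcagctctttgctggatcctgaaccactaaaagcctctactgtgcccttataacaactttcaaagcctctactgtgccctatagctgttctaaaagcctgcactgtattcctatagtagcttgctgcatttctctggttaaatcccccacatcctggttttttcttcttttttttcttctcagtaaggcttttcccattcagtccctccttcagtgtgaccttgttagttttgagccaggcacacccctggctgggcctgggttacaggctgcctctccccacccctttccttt
Col9a2: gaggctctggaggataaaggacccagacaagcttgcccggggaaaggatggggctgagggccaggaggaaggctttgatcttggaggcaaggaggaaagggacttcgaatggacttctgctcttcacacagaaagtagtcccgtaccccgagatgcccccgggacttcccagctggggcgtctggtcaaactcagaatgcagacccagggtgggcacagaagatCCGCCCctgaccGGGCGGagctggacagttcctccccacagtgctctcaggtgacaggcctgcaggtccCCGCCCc
Col11a1: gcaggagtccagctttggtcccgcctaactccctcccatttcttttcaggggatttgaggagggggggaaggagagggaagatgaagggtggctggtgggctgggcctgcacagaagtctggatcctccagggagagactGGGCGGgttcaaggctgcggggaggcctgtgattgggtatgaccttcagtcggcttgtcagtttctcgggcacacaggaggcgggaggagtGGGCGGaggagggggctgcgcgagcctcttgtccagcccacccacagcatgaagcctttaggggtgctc
Col4a1: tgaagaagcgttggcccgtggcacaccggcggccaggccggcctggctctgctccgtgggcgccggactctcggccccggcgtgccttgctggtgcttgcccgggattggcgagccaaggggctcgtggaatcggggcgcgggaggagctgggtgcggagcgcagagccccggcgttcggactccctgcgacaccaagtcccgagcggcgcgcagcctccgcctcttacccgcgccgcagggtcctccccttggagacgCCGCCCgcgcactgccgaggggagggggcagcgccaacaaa
Col4a2: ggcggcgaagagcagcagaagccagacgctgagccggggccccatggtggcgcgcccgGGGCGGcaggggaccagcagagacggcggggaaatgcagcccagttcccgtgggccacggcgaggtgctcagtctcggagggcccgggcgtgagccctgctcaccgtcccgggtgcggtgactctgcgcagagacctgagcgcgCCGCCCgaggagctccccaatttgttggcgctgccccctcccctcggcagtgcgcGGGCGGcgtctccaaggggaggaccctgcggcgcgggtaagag
The Col9a1 window held no GC box, the Col9a2 window 3, the Col11a1 window 2, the Col4a1 window 1 and the Col4a2 window 3, counted on both strands. Of 38 collagen windows, from the 35 collagen genes in the table, 23 held a GC box (60.5%), beside 35.7% of all 32851 windows of the same length. TATAAA was in 5 collagen windows (13.2%, all windows 13.6%), and the SOX-type letters ACAATG and ACAAAG were in 1 (2.63%, all windows 12.6%) and 5 (13.2%, all windows 18.7%). None of these 3 motifs was in the 5 windows printed. The collagen windows had a median GC content of 59.8%, against 52.7% over all windows. The windows of Col4a1 and Col4a2 share 78 bases, chr8:11312777-11312854, read on opposite strands.

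In the GENCODE annotation of GRCm38, the cartilage genes lie on 6 chromosomes: Col2a1 on chromosome 15 (97975602 to 98004695), Col9a1 on 1 (24177610 to 24252684), Col9a2 on 4 (121039385 to 121055322), Col9a3 on 2 (180597790 to 180622189), Col11a1 on 3 (114030540 to 114220718) and Col11a2 on 17 (34039437 to 34066685). The type IV genes come in head-to-head pairs: the outer starts of Col4a1 and Col4a2 on chromosome 8 are 21 bases apart and overlap, those of Col4a3 and Col4a4 on chromosome 1 are 72 bases apart, and those of Col4a5 and Col4a6 on the X chromosome are 1309 bases apart. Exons on the opposite strand cover 6.07% of the exon bases of Col9a3 (Tcfl5), 5.65% of those of Col4a3 (C430014B12Rik), 3.39% of Col6a4 and 2.50% of Col5a1. Smaller shares include 0.98% for Col4a2 (Col4a1 and Gm15419) and 0.58% for Col10a1 (Nt5dc1). The kit marks strand, but the strand setting of the counting is not given in the sources used here, so a share of these reads could belong to the partner genes.

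The values are TPM, which correct for the length of a gene and the size of a library, so levels of different genes can be set side by side within a table; TPM keep no record of depth, and no counting interval is given. Changes are differences of mean log2(TPM + 1), with p-values from limma adjusted over all tested genes, and "rose" or "fell" means an adjusted p under 0.05. The tables were scaled separately, so no test crosses them. Mogat1 did not follow the labels, since all 3 shCTRL tumor libraries listed it at 0 while it reached 0.433 ± 0.253 TPM (SD, n = 3) in the libraries labelled shMogat1. It was at most 0.624 TPM in any of these libraries, too low to be tested, so this difference lies near the floor. Epithelial markers were nearly absent from the tumor libraries labelled shCTRL, where Epcam was at 0.693 ± 0.155 TPM and Krt8 at 1.45 ± 0.127. In the tumor libraries labelled shMogat1 they were at 29.6 ± 1.17 and 39.7 ± 2.83, and over the weeks Epcam means ran from 305.4 to 528.9 TPM. Below, shCTRL and shMogat1 stand for the libraries so labelled, and directions between them rest on these labels. Cd8a means of 685.3 to 1099 TPM marked the CD8 T cell libraries, beside at most 13.5 in a tumor group mean.

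Of the 44 members, 38 passed the filter on low values (1 TPM or more in at least 3 libraries) in the tumor time course, 31 in the knockdown tumor cells, 29 in the CD8 T cells over time and 33 in the knockdown CD8 T cells, and 28 passed in every table. Col4a3, Col6a4, Col19a1, Col22a1, Col26a1 and Col28a1 passed in none, with 4.13 TPM (Col28a1 in 1 week 4 tumor library) as their highest value.

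Type III collagen was the most abundant chain in all 4 tables. In the tumor time course Col3a1 averaged 1331 TPM over the 11 libraries, ahead of Col1a1 (581.5), Col1a2 (577.0) and Col6a1 (370.5), a chain of the type VI beaded filament. Col1a1 and Col1a2, which encode the paired chains of type I collagen, ranged over 67.9 to 1113 and 103.0 to 1111 TPM there. Their ratio within a library was 0.66 to 0.89 at week 2, 1.05 to 1.24 at week 3 and 0.96 to 1.07 at week 4. In the knockdown tumor cells the order was different: Col3a1 averaged 1720 TPM and Col6a1 810.4, followed by Col18a1 (366.1), Col4a1 (347.9) and Col8a1 (345.3), while Col1a1 lay between 70.6 and 105 TPM. Summed over the family, collagens took 0.150% to 0.818% of the TPM of a tumor library over the weeks and 0.508% to 0.582% in the knockdown set. In CD8 T cells they took 0.0104% to 0.0874% over the weeks and 0.132% to 0.210% in the knockdown set.

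**Figure D1:**
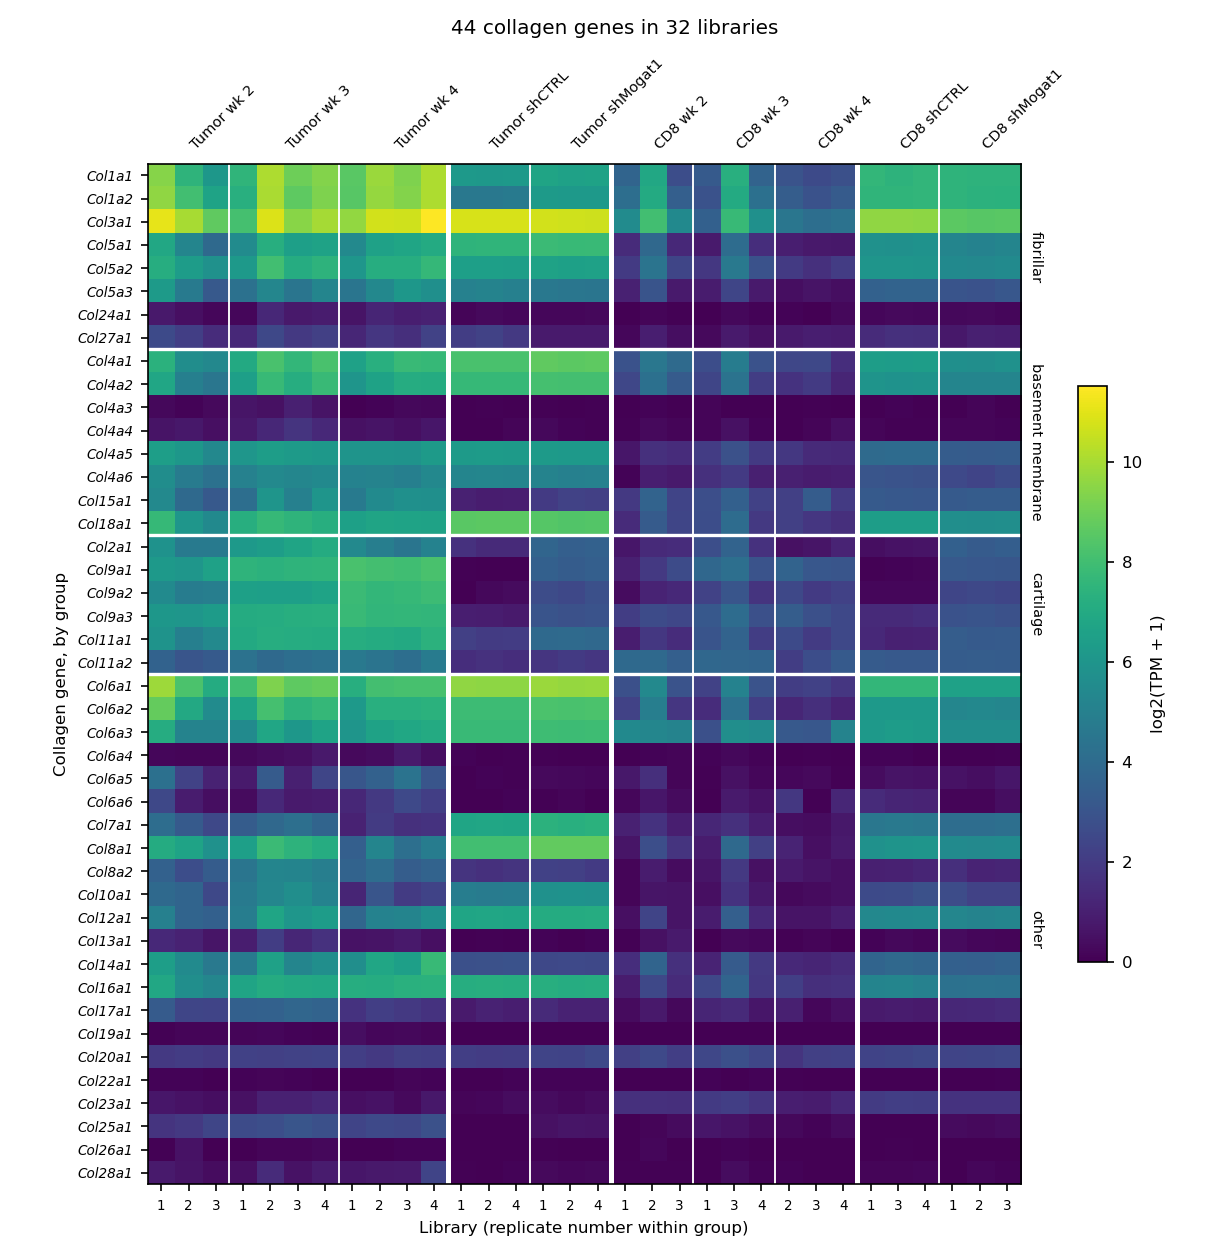
Level of each of the 44 collagen genes (vertical axis, by group) in each of the 32 libraries (horizontal axis, replicate number within group), as log2(TPM + 1) in color. The cartilage collagens are at 7.18 TPM (Col11a2) or more in every tumor library of the 3 weeks. They are at most 3.52 TPM in the tumor libraries labelled shCTRL and at most 14.8 TPM in those labelled shMogat1. Most collagens are lower in CD8 T cells than in tumor cells of the same set.

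The tumor time course compares early, middle and late tumors. From week 2 to week 4, 5 of the 6 cartilage collagens rose: Col9a2, Col9a1, Col9a3, Col11a1 and Col11a2. The nonfibrillar Col8a1, Col7a1, Col10a1 and Col17a1 fell, and none of the 8 fibrillar members passed the test. Over the family, 7 of 38 tested members rose and 4 fell (limma, adjusted p under 0.05), together 28.9%, beside 46.3% of all 14770 tested genes (29.2% higher, 17.1% lower). With all libraries the count over the whole family was therefore below the background share. Without week 2 replicate 1 it was 23 of 38 members, with 7765 genes called in all, so the count depended on that library. The median log2 difference was 1.61 for the cartilage group, 0.70 for the fibrillar, 0.24 for the basement membrane and 0.13 for the other collagens, beside 0.11 for all tested genes. Median-of-ratios rescaling moved the median of all tested genes from 0.11 to -0.01 and the higher share of all called genes from 63.1% to 50.9%; it moved the collagen median from 0.62 to 0.49.

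Type IX collagen, which coats thin cartilage fibrils, showed the largest rise. Col9a2 was at 45.3, 27.4 and 29.5 TPM in the 3 week 2 libraries, at 91.9, 89.2, 90.6 and 101 at week 3, and at 232, 196, 210.4 and 234 at week 4. All libraries of a later week lay above all of an earlier one. The log2 difference from week 2 to week 4 was 2.68 (SE 0.15, adjusted p = 2.34e-06). The steps to week 3 (1.46) and on to week 4 (1.21) each passed the threshold. Col9a1 was at 73.9, 66.1 and 96.2 TPM at week 2, at 181, 168, 180.2 and 186 at week 3, and at 299, 269, 256 and 299 at week 4. Its weeks did not overlap either, and it rose by 1.84 on the log2 scale (SE 0.12, adjusted p = 4.03e-06). Col9a3, the third chain of the heterotrimer, was at 66.7, 65.0 and 78.5, then at 135, 140.1, 147 and 151, then at 225, 188, 197 and 189.8 TPM. It too stepped up without overlap, by 1.501 (SE 0.10, adjusted p = 3.94e-06). The ratio of Col9a1 to Col9a2 went from 1.63, 2.42 and 3.26 in the week 2 libraries to 1.84 to 1.99 at week 3 and 1.22 to 1.37 at week 4, so the chains did not rise in step.

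Type XI collagen, the core chain of these fibrils, rose mainly between weeks 2 and 3. Col11a1 was at 59.9, 30.1 and 42.2 TPM at week 2, at 127, 144, 141 and 137 at week 3, and at 144, 134, 128 and 168 at week 4. The later weeks overlapped each other and lay above week 2. Its log2 rise to week 3 was 1.67 (SE 0.18, adjusted p = 0.000464), and the difference of 0.057 between the later weeks did not pass (adjusted p = 0.867). Col11a2, a lower expressed chain of the same type, was at 11.2, 7.18 and 8.65, then 19.1, 14.5, 17.02 and 18.95, then 24.6, 20.4, 16.9 and 26.9 TPM, and rose by 1.21 from week 2 to week 4 (SE 0.18, adjusted p = 0.000373). Type II collagen, the main cartilage chain, followed another course. Col2a1 was at 57.7, 26.1 and 25.9 TPM at week 2, at 74.9, 83.3, 105 and 136 at week 3, and at 42.2, 29.1, 21.5 and 34.0 at week 4. It rose by 1.49 to week 3 (SE 0.31, adjusted p = 0.00747) and then fell by 1.63 (SE 0.29, adjusted p = 0.00432). Weeks 2 and 4 overlapped, with a log2 difference of -0.14 (SE 0.31, adjusted p = 0.741).

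**Figure D2:**
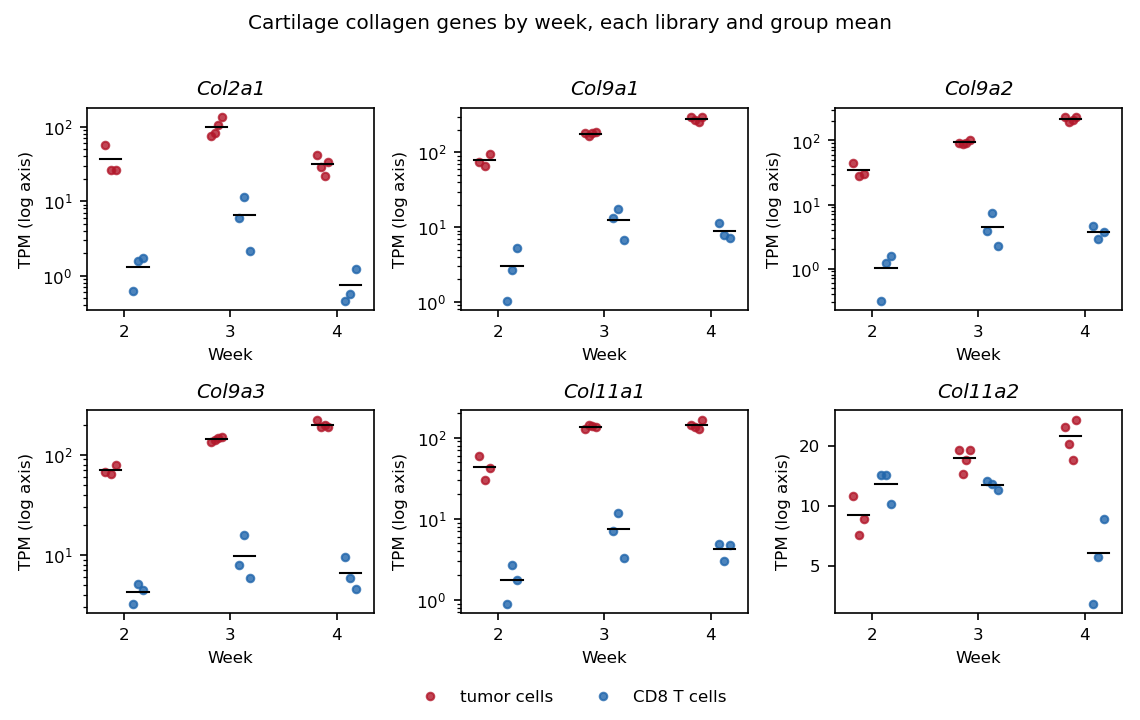
TPM of the 6 cartilage collagens (vertical log axis) by week (horizontal axis) in tumor cells (red) and CD8 T cells (blue), 1 point per library and a bar at the group mean. In tumor cells the 3 type IX genes step up at each week and Col2a1 peaks at week 3. Col11a2 in CD8 T cells reaches tumor levels at week 2 and lies below every tumor library at weeks 3 and 4.

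The summed TPM of the 6 cartilage genes was 315, 222 and 281 at week 2, 629 to 730 at week 3 and 830 to 966 at week 4, with no overlap between weeks. Luminal epithelial markers rose over the same weeks: 8 of 10 were higher at week 4 than at week 2 and 1 (Krt19) lower, and their summed TPM ran from 1151 to 1526 at week 2 and from 2119 to 2571 at week 4. The cartilage sum divided by the luminal marker sum was 0.25, 0.19 and 0.18 at week 2, 0.29 to 0.39 at week 3 and 0.33 to 0.40 at week 4. Of 12 chondrocyte markers, 10 were in the table and 7 were tested, of which 2 were higher and 2 lower at week 4 than at week 2 (median log2 difference 0.17). Their summed TPM averaged 248.7, 401.7 and 392.2 at weeks 2, 3 and 4. Matn1, a cartilage matrix protein, was listed at 0 in all week 2 and week 3 libraries. Acan, the main cartilage proteoglycan, averaged 1.56 TPM at week 2 and 0.0629 at week 4, a fall of 1.02 on the log2 scale (adjusted p = 0.0426) that was lost in 13 of 18 alternative settings. Sox9, a transcription factor of cartilage that mammary epithelium also makes, averaged 226 TPM at week 2 and 375 at week 4 and rose by 0.83 (adjusted p = 0.0148). It held most of the chondrocyte marker sum at both weeks, so that sum mainly follows Sox9. The part that the luminal share of the libraries has in the rise of the cartilage collagens was not tested. In bulk libraries fewer cells of a type and less RNA per cell cannot be told apart.

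Col8a1, Col7a1, Col10a1 and Col17a1 were low at week 4. Col8a1 encodes a short-chain collagen of vessel walls and was at 137, 102 and 55.0 TPM at week 2, at 89.0, 232, 174 and 138 at week 3, and at 10.2, 37.4, 17.7 and 27.4 at week 4. Week 4 lay below all earlier libraries, and Col8a1 fell by 2.08 from week 2 (SE 0.44, adjusted p = 0.00313). Col7a1, the anchoring fibril chain below epithelia, went from 16.2, 8.65 and 4.71 through 9.29, 13.8, 17.6 and 12.2 to 1.18, 3.02, 2.02 and 2.23 TPM, and fell by 1.69 (SE 0.34, adjusted p = 0.00229). Col17a1, a transmembrane chain of hemidesmosomes, was at 8.76, 4.30 and 4.09, then at 10.6, 10.8, 12.9 and 11.5, then at 2.17, 3.39, 2.82 and 2.18 TPM. It rose by 0.96 to week 3 (adjusted p = 0.0122) and then fell by 1.79 (adjusted p = 0.000434). Col10a1, known from hypertrophic cartilage, peaked at week 3 as well, with 14.5, 12.3 and 4.59, then 26.1, 38.2, 50.2 and 33.9, then 1.30, 7.13, 2.97 and 4.06 TPM. Its weeks 2 and 4 overlapped, and its fall of 1.25 between them (adjusted p = 0.0346) was lost in 9 of 18 alternative settings, among them without week 2 replicate 1 (-0.97, adjusted p = 0.113).

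Of 10 endothelial markers 7 fell and 1, Flt1, rose (1.02) between weeks 2 and 4, with a median log2 difference of -1.31, and 6 of 7 T cell markers fell with a median of -2.37. The part of these shifts in the lower Col8a1 and Col7a1 levels was not tested. From week 3 to week 4, limma called 8 members lower and 3 higher, 28.9% of 38, beside 13.7% of all tested genes (8.19% lower, 5.53% higher). The 8 were Col10a1 (-3.08), Col8a1 (-2.78), Col7a1 (-2.19), Col17a1 (-1.79), Col2a1 (-1.63), Col8a2 (-1.25), Col13a1 (-0.86) and Col4a4 (-0.71), and the 3 were the type IX genes. The call of Col13a1 was lost in 11 of 18 alternative settings and that of Col4a4 in 6 of 15. Col4a4 reached 1 TPM in week 3 libraries alone (1.41, 2.35 and 1.49 TPM). It passed the filter through that week only, so its calls here and from week 2 to week 3 support nothing. From week 2 to week 3, 15 of 38 members rose and none fell (39.5%, beside 24.1% of all tested genes, 20.1% higher and 4.01% lower). Besides all 6 cartilage members these were Col12a1 (1.93), a fibril-associated chain, Col4a2 (1.88), Col10a1 (1.82), Col8a2 (1.74), Col4a1 (1.63), Col17a1 (0.96), Col16a1 (0.94), Col25a1 (0.80) and Col4a4 (0.67). The median of all tested genes was 0.14 in that step and -0.01 after median-of-ratios rescaling, with the higher share of all calls at 83.3% and 58.1%. After that rescaling 13 members remained called and none was added. The count was 8 without week 2 replicate 2 and 21 without week 2 replicate 1. Calls over all genes were then 1371 and 5751, against 3560 with every library. All 6 cartilage members kept their calls in all 18 alternative settings. The calls of Col16a1 were lost in 14 of 18, those of Col12a1 in 8 of 18 and those of Col4a4 in 10 of 15.

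The remaining calls from week 2 to week 4 were Col16a1 and Col25a1. Col16a1, a chain that attaches to fibrils, was at 119, 51.5 and 37.6 TPM at week 2, at 104 to 135 at week 3, and at 143, 140.5, 157 and 164 at week 4. Week 4 lay above all week 2 libraries, and the gene rose by 1.28 (SE 0.29, adjusted p = 0.00442). Col25a1, a transmembrane chain, was at 2.30, 2.75 and 4.37 TPM at week 2 and at 4.19, 4.88, 4.50 and 6.24 at week 4, groups that overlapped. It rose by 0.54 (SE 0.19, adjusted p = 0.0362), a call lost in 12 of 18 alternative settings.

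The fibrillar collagens did not separate the weeks. Col1a1 was at 688, 181 and 67.9 TPM in the week 2 libraries, at 187, 1113, 498 and 673 at week 3, and at 378, 882, 634 and 1094 at week 4. The weeks overlapped, and the log2 difference of 1.76 from week 2 to week 4 did not pass (SE 0.74, adjusted p = 0.0737). Its partner chain Col1a2 was at 776, 259 and 103, then at 155, 1062, 401 and 618, then at 372, 826, 664 and 1111 TPM. Those groups overlapped too (log2 1.33, SE 0.72, adjusted p = 0.153). Col3a1 was at 2193, 1022 and 414 TPM, then at 279, 1937, 704 and 1002, then at 814, 1715, 1625 and 2931 (log2 0.72, SE 0.68, adjusted p = 0.412). The type VI genes Col6a1 and Col6a2 gave the same picture, with Col6a1 at 919, 307 and 134 TPM at week 2 and at 149, 265, 282 and 287 at week 4, and Col6a2 at 448, 124 and 45.6 and at 74.4, 151, 155 and 163.

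Week 2 replicate 1 and week 3 replicate 1 stood apart. Week 2 replicate 1 had the highest level of that week for every gene named in the last paragraph, and week 3 replicate 1 the lowest of its week. Among 27 collagens that averaged at least 10 TPM over the tumor libraries, the median coefficient of variation was 62.8% at week 2, 35.2% at week 3 and 30.3% at week 4, beside 19.95%, 8.71% and 8.39% over all 9201 genes above that level. Without week 2 replicate 1, calls over all genes between weeks 2 and 4 went from 6843 to 7765. Of the 38 tested members, 23 were then called (20 higher, 3 lower). Among them Col1a1 rose by 2.63 (adjusted p = 0.00722), Col1a2 by 2.07 (adjusted p = 0.0279) and Col4a1 by 1.84 (adjusted p = 0.00268). The log2 difference then turned positive for Col6a1 (-0.50 with all libraries, 0.23 without), Col6a2 (-0.078, then 0.77) and Col2a1 (-0.14, then 0.24). Leaving out week 3 replicate 1 as well gave 24 members from week 2 to week 4 and 26 from week 2 to week 3. Calls over all genes were then 7731 and 5412. The 5 cartilage calls of week 4 against week 2 held in all 18 alternative settings.

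**Figure D3:**
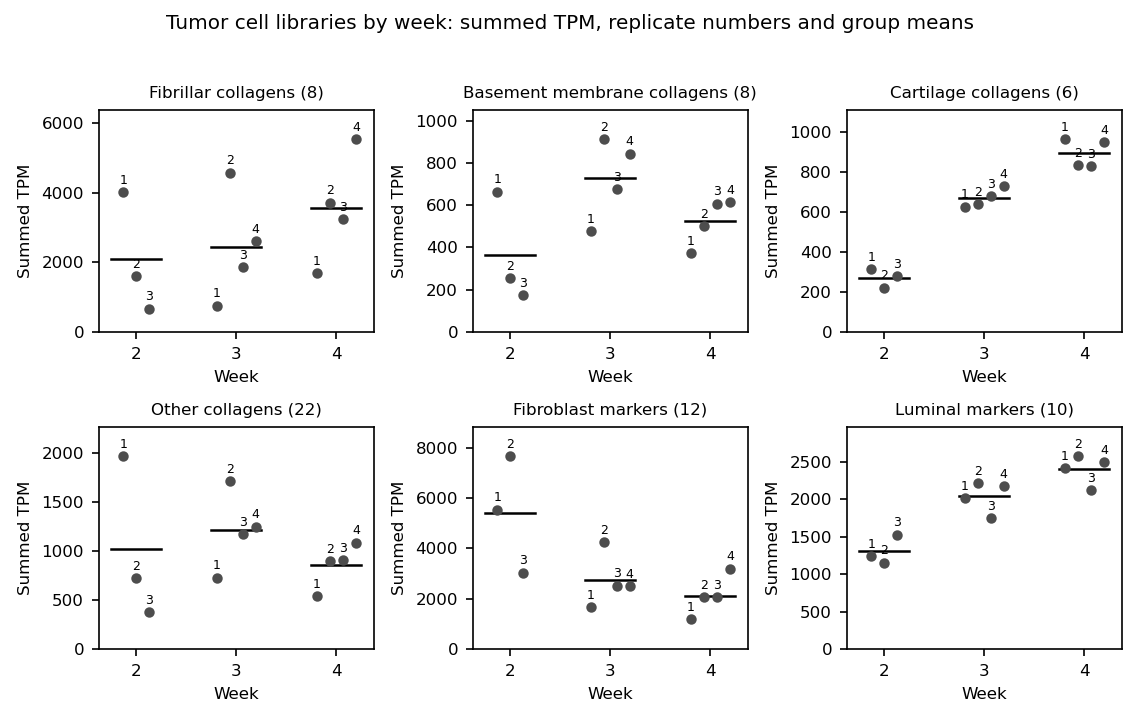
Summed TPM (vertical axis) of the 4 collagen groups and of fibroblast and luminal markers in each tumor library by week (horizontal axis), with replicate numbers and a bar at the group mean. The cartilage sum separates the weeks without overlap, from 222 to 315 at week 2 to 830 to 966 at week 4, while the fibrillar sum ranges from 666 to 4003 within week 2 alone.

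At week 2 the fibroblast markers and the fibrillar genes peaked in different libraries. Their summed TPM was 5545, 7666 and 3043 at week 2, with the highest value in replicate 2, and 1185, 2058, 2064 and 3201 at week 4, while the fibrillar sum was 4003, 1609 and 666 and then 1695, 3706, 3242 and 5529. The fibrillar sum over the fibroblast marker sum was 0.72, 0.21 and 0.22 at week 2, 0.46 to 1.07 at week 3 and 1.43 to 1.80 at week 4. All 12 fibroblast markers averaged at least 1 TPM at every week, and 1 rose and 2 fell from week 2 to week 4. One of the lower ones was Dcn, a proteoglycan that binds collagen fibrils, which went from 3127 to 497 TPM (log2 -2.56, adjusted p = 0.0028). The fibroblast marker sum averaged 5418 TPM at week 2 and 2127 at week 4. Dcn was therefore most of the sum at week 2, and the ratio without this gene was not computed.

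The type IV chains Col4a1 and Col4a2, which assemble together in most basement membranes, had week 2 levels that spread widely. Col4a1 was at 165, 48.9 and 40.5 TPM at week 2, at 125, 296, 199 and 295 at week 3, and at 95.9, 154, 219.5 and 209.8 at week 4. Col4a2 was at 113, 30.1 and 22.1, then at 90.3, 217, 145 and 221, then at 63.7, 97.6, 141 and 136 TPM. The ratio of Col4a1 to Col4a2 ran from 1.46 to 1.84 at week 2, from 1.34 to 1.38 at week 3 and from 1.51 to 1.57 at week 4, so the later weeks did not overlap. The 2 genes share the promoter stretch printed above. Both rose from week 2 to week 3, by 1.63 (adjusted p = 0.0316) and 1.88 (adjusted p = 0.0238), with overlapping groups, and these calls were lost in 8 and 6 of 18 alternative settings. The X-linked pair Col4a5 and Col4a6, chains of epithelial basement membranes, had week means of 64.9, 74.5 and 64.8 TPM and of 31.5, 38.8 and 34.7. Neither passed the test in any step. In the third pair Col4a4 averaged 0.54, 1.501 and 0.49 TPM and Col4a3, which was under the filter, 0.16, 0.62 and 0.11, and for both the week 3 libraries lay above those of the other weeks.

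Genes whose products work on or with collagen were counted in lists. Basement membrane partners had 10 of 17 tested genes higher and none lower at week 4 than at week 2 (median log2 0.95, all genes 0.11), among them the laminin chains Lama5 (2.19) and Lama1 (1.44) and the proteoglycan Agrn (1.44). Of 20 enzymes and chaperones that modify collagen chains, 9 rose and 2 fell, led by the prolyl hydroxylases P3h2 (2.24) and P4ha2 (0.88) and the lysyl hydroxylase Plod1 (1.43). Of 15 fibril proteoglycans and associated proteins 6 fell, including Dcn and Ogn (-2.24), and 1, Tnxb, rose (2.42). Procollagen processing had 2 of 7 lower, Pcolce (-1.12), which was lost in 10 of 18 settings, and Adamts3 (-1.11), and crosslinking had 1 of 6 lower, Loxl3 (-0.69), lost in 9. Among 9 collagen receptors Ddr1 (1.69), Mrc2 (1.56) and Itga1 (1.05) rose and 2 fell, Itgb1 (-0.86) and Lair1 (-1.504, lost in 9 of 18 settings). Degradation and its inhibitors had 1 of 17 higher, Mmp15 (1.74), and 3 lower, including Mmp16 (-2.70) and Timp1 (-2.30). Cartilage regulators and partners had 4 of 11 higher and 2 lower.

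The knockdown tumor cells address what differs between tumors labelled shMogat1 and shCTRL. All 6 cartilage collagens were higher under the label shMogat1, from 3.45 on the log2 scale for Col9a1 to 0.29 for Col11a2. Col1a2, Col15a1, Col10a1, Col8a1 and Col7a1 were higher as well, and Col27a1 and Col5a3 were lower. In all, 22 of 31 tested members were higher and 6 lower, 90.3% beside 54.5% of all 12936 tested genes (34.6% higher, 19.9% lower). The median log2 difference was 2.08 for the cartilage group, 0.33 for other, 0.16 for basement membrane and 0.11 for fibrillar collagens, beside 0.07 for all genes. The replicates were close, with a median coefficient of variation for collagens of 1.78% in shCTRL and 2.69% in shMogat1, so small differences passed. Col9a1, Col9a2 and Col9a3 passed the filter through shMogat1 alone, and Col27a1 through shCTRL alone, so the counts and medians describe the members and support nothing. Under median-of-ratios rescaling 19 members were higher and 8 lower, and the higher share of all called genes went from 63.5% to 45.4%.

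Col9a1 was at 0.0318 TPM in shCTRL replicate 1 and listed at 0 in replicates 2 and 4, and at 10.7, 9.22 and 10.2 TPM in the 3 shMogat1 libraries (log2 3.45, SE 0.10, adjusted p = 8.41e-08). A fold would rest on the pseudocount and is not given. Col9a2 was at 0, 0.18 and 0.27 against 5.46, 4.60 and 6.11 TPM (log2 2.47), and Col9a3 at 0.93, 0.92 and 0.78 against 6.91, 6.32 and 6.69 (log2 2.03). Col2a1 was at 2.09, 1.59 and 1.604 against 12.5, 10.2 and 10.8 TPM (log2 2.14, SE 0.11, adjusted p = 1.67e-06). Col11a1 was at 3.52, 3.07 and 3.08 against 14.4, 14.8 and 13.6 (log2 1.86, SE 0.07, adjusted p = 4.26e-07). No shMogat1 library overlapped a shCTRL library for these 5 genes, and the calls of Col2a1 and Col11a1 held in all 11 alternative settings. Those of the 3 type IX genes held in the 8 settings in which they passed the filter, and they dropped below it whenever a shMogat1 library was left out. Col11a2, at 1.84, 2.14 and 1.88 against 2.45, 2.87 and 2.48 TPM (log2 0.29, adjusted p = 0.0419), lost its call in 9 of the 11. The cartilage sum was 8.41, 7.89 and 7.61 TPM in shCTRL and 52.4, 48.0 and 49.9 in shMogat1.

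The shMogat1 tumor libraries also held more epithelial and immune RNA. Of 9 tested luminal markers 9 were higher, with a median log2 difference of 2.49, and their summed TPM was 203 to 218 in shCTRL and 950.3 to 995 in shMogat1. The cartilage sum over the luminal sum was 0.0374 to 0.0387 in shCTRL and 0.0504 to 0.0526 in shMogat1. Of the 10 luminal markers only Krt18 averaged at least 5 TPM in shCTRL, so the ratio there rests mainly on that gene. Mean Epcam was at 0.693 TPM in shCTRL and 29.6 in shMogat1, and mean Krt8 at 1.45 and 39.7. All 10 macrophage markers and 5 of 6 tested T cell markers were higher too. The luminal markers Epcam, Cldn3, Cldn4, Elf3 and Esrp1 and the T cell markers Cd3e, Cd8a and Cd8b1 passed the filter through shMogat1 alone. Of 6 tested chondrocyte markers none was higher and 3 were lower: Acan averaged 56.8 TPM in shCTRL and 6.47 in shMogat1 and fell by 2.96 (SE 0.069), and Sox9 went from 381 to 229 TPM (log2 -0.74). Matn1 was listed at 0 in all 6 libraries. The part of the luminal cells in the cartilage difference was not tested.

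**Figure D4:**
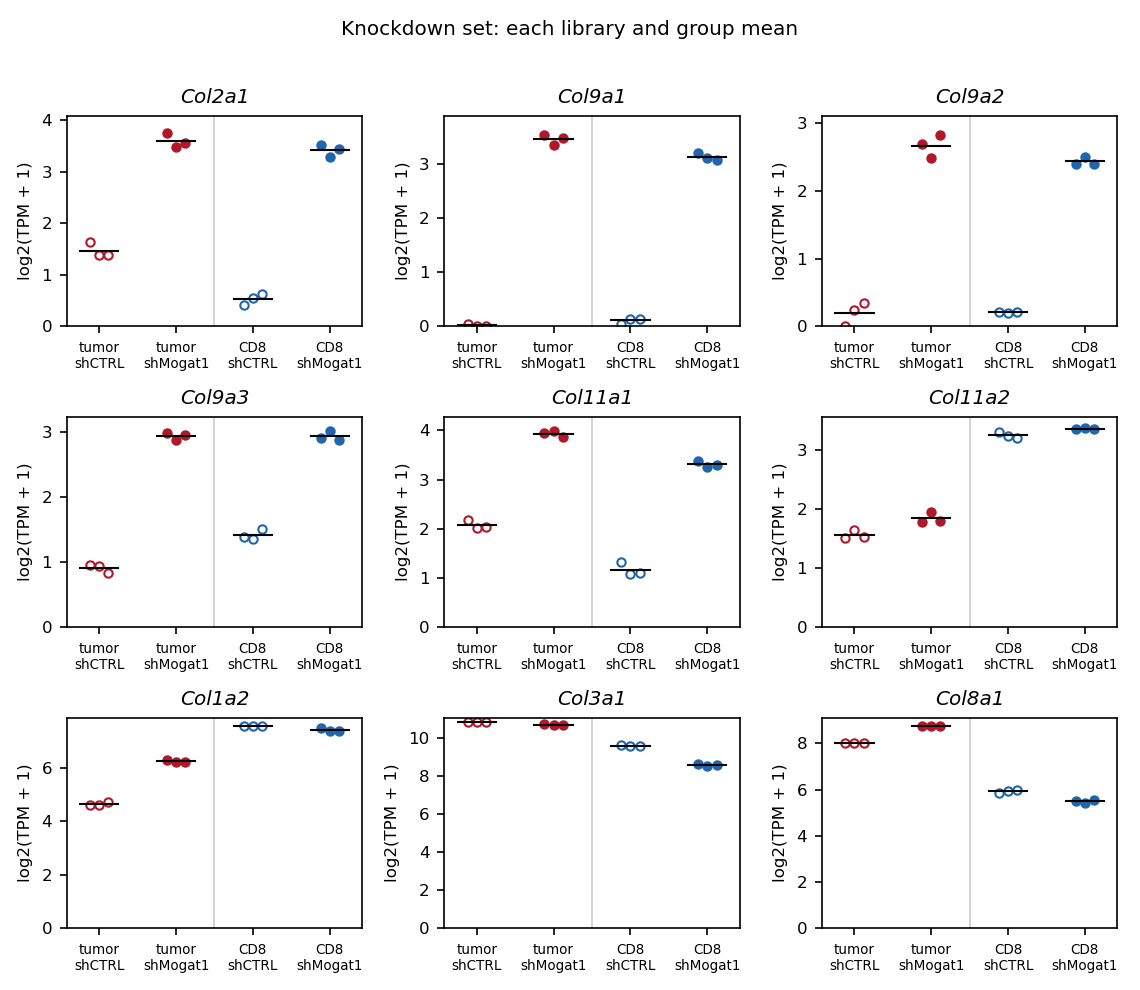
Level as log2(TPM + 1) (vertical axis) of the 6 cartilage collagens and of Col1a2, Col3a1 and Col8a1 in the 4 knockdown groups (horizontal axis), 1 point per library (open shCTRL, filled shMogat1) and a bar at the mean. All 6 cartilage genes are higher in every shMogat1 library than in every shCTRL library of the same cell type, and Col8a1 is higher under shMogat1 in tumor cells and lower in CD8 T cells.

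Among the fibrillar members Col1a2 had the largest difference, at 23.5, 23.5 and 25.5 TPM in shCTRL and 76.9, 74.1 and 73.2 in shMogat1 (log2 1.59, SE 0.04, adjusted p = 6.60e-08). Col1a1 was at 73.0, 70.6 and 75.1 against 105, 96.1 and 96.98 TPM (log2 0.44, adjusted p = 4.43e-05), so the ratio of Col1a1 to Col1a2 was 2.95 to 3.11 in shCTRL and 1.30 to 1.36 in shMogat1. The chains of type I collagen were therefore not at one ratio in the 2 arms. Of 12 fibroblast markers 7 were higher under shMogat1 and 3 lower (median log2 0.34), while their summed TPM averaged 5789 in shCTRL and 3169 in shMogat1. Dcn was among the lower ones, and a sum weighs each marker by its level. The part of the fibroblast markers in these differences was not tested. Col5a1 (0.27) and Col5a2 (0.11), minor chains that set fibril width, were higher. The call of Col5a2 was lost in 2 of 11 alternative settings, among them median-of-ratios rescaling (0.019). Col27a1, at 3.22, 3.77 and 2.79 against 0.79, 0.78 and 0.77 TPM, fell by 1.25 (SE 0.12, adjusted p = 5.19e-05). It passed the filter through shCTRL alone and dropped below it whenever a shCTRL library was left out. Col5a3 was at 32.2, 34.1 and 31.2 against 23.3, 21.9 and 21.4 TPM and fell by 0.53. Col3a1 was at 1787, 1795 and 1796 against 1690, 1635 and 1620 TPM, a difference of -0.12 (adjusted p = 0.000988) that was 0.004 after quantile normalization.

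Of the basement membrane members, Col15a1 rose from 1.05, 0.92 and 0.94 to 2.93, 3.87 and 3.57 TPM (log2 1.17, SE 0.11). Col4a1 was at 294, 293 and 294 against 419, 388 and 400 TPM (log2 0.45), and Col4a2 at 209, 210.7 and 208 against 280.5, 271 and 269 (log2 0.38). Both arms were free of overlap, and the ratio of Col4a1 to Col4a2 stayed between 1.39 and 1.49. Col18a1, whose C-terminal fragment is endostatin, was lower, at 383, 386 and 387 against 358, 336 and 347 TPM (log2 -0.15, adjusted p = 0.0014), as was Col4a6 (-0.18). Col4a5 did not pass (-0.068, adjusted p = 0.104), and Col4a3 and Col4a4 stayed under the filter.

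Among the other members, Col8a1 was at 257, 259 and 260.1 TPM in shCTRL and 429.8, 436 and 431 in shMogat1 (log2 0.74, SE 0.02, adjusted p = 3.75e-08). Col10a1 was at 28.5, 27.1 and 27.5 against 55.5, 56.9 and 56.0 TPM (log2 0.99), and Col7a1 at 109, 112 and 107 against 166, 155 and 165 (log2 0.56). None of these groups overlapped. The type VI genes had small differences: Col6a1 was at 770.0, 765 and 762 against 872, 839 and 855 TPM (log2 0.16), Col6a2 at 234, 238.5 and 238 against 307.5, 295 and 307 (log2 0.35), and Col6a3 at 220.2, 225 and 224.5 against 248.5, 238 and 246 (log2 0.13). The call of Col6a3 was lost on median-of-ratios rescaling (0.038), and those of Col8a2 (0.44) and Col20a1 (0.31) on quantile normalization. For Col20a1 the call was lost in 3 of 11 alternative settings in all. Col12a1 (0.35) was higher, Col14a1 (-0.32) lower, and Col16a1 and Col17a1 did not pass. Col25a1 stayed under the filter, listed at 0 in 2 shCTRL libraries and at 0.43 to 0.58 TPM in shMogat1.

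Of the partner lists in these tumor cells, crosslinking enzymes had 5 of 6 higher and none lower (median log2 0.50, all genes 0.07), led by the lysyl oxidases Lox (1.82) and Loxl2 (0.88). Among the list genes Loxl2, Matn4 and Itga11 passed the filter through shMogat1 alone and Kera through shCTRL alone. Procollagen processing had 3 of 5 higher, with Bmp1 (0.68) and Adamts2 (0.57), which trim the propeptides, and 1 lower (Pcolce2, -0.94). Chain modification was split, with 7 of 19 higher (P4ha2, 1.53) and 9 lower (Fkbp14, -0.94; P3h2, -0.84). Fibril proteoglycans had 4 of 14 higher (among them Dpt) and 6 lower (Dcn, -2.26), basement membrane partners 5 of 15 in each direction (Lama5, 2.06; Lama4, -1.32; Nid1, -1.27), and collagen receptors 5 of 9 higher (Itga2, 0.86) and 2 lower (Itga1, -0.81). Degradation and inhibitors had 6 of 17 higher (Mmp13, 1.36) and 8 lower (Mmp2, -1.54; Timp3, -1.29), and cartilage regulators 2 of 10 higher (Matn4, 1.33) and 4 lower (Cilp, -1.08).

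CD8 T cells make little collagen themselves, and their libraries were compared with tumor cells of the same set as a check of carried-over RNA. Levels were set side by side across separately scaled tables, as a share of the tumor mean, for genes with at least 5 TPM there. The median share of the fibrillar collagens was 10.02%, 8.08% and 0.995% at weeks 2, 3 and 4, and that of the cartilage collagens 3.92%, 6.71% and 3.05%. Luminal markers stood at 5.08%, 7.48% and 3.69% and fibroblast markers at 5.85%, 6.47% and 1.94% in the same weeks. The shares of both collagen groups and both marker lists were lowest at week 4. Other lists were lowest at an earlier week. Macrophage markers stood at 12.6%, 53.9% and 46.0%, endothelial markers at 21.1%, 9.86% and 13.7%, and basal and myoepithelial markers at 4.99%, 8.49% and 6.05%. Some members lay far above. Col11a2 stood at 143%, 73.2% and 26.3% of the tumor mean, Col6a3 at 56.2%, 42.1% and 16.5%, and Col15a1 at 28.4%, 15.3% and 11.9%. Col23a1 and Col20a1, both under 5 TPM in tumor cells, averaged 2.00 and 3.94 TPM in CD8 T cells at week 2 against 0.49 and 2.88 in tumor cells.

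In CD8 T cells 2 libraries held most of the fibrillar collagen signal. Col3a1 was at 45.4, 258 and 43.5 TPM at week 2 (replicates 1, 2 and 3), at 10.7, 216 and 53.9 at week 3 (replicates 1, 3 and 4), and at 22.2, 16.7 and 19.2 at week 4 (replicates 2, 3 and 4). Col1a1 was at 12.1, 118 and 5.56, then at 8.71, 154 and 11.6, then at 6.76, 5.07 and 5.93 TPM. Week 2 replicate 2 and week 3 replicate 3 held the high values, with collagen sums of 792 and 874 TPM against 104 to 223 in the other 7 libraries. Col6a3 did not follow them: it was at 43.6, 37.8 and 34.7 TPM, then at 5.94, 50.2 and 45.9, then at 8.41, 7.69 and 34.5. No fibrillar member passed in any week comparison of CD8 T cells, and the median log2 difference of the fibrillar group from week 2 to week 4 was -1.52.

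From week 2 to week 4 in CD8 T cells 2 of 29 tested members passed (6.9%, beside 17.5% of all 13350 tested genes, 10.3% higher and 7.18% lower). Col9a2 rose by 1.27 (SE 0.37, adjusted p = 0.0441), and Col11a2, at 14.2, 14.3 and 10.2 TPM at week 2, 13.3, 12.8 and 11.99 at week 3 and 3.26, 5.59 and 8.63 at week 4, fell by 1.09 (SE 0.27, adjusted p = 0.0259). These calls were lost in 9 and 8 of 16 alternative settings, among them the one that leaves out week 2 replicate 2 and week 3 replicate 3 (adjusted p = 0.0738 and 0.128). Col9a1 missed the threshold (log2 1.42, SE 0.43, adjusted p = 0.0507), with all week 4 libraries above those of week 2, and passed on median-of-ratios rescaling (1.43, adjusted p = 0.044). From week 3 to week 4 the transmembrane Col23a1 fell by 0.94 (adjusted p = 0.0374), the only member of 29 (3.45%, beside 2.67% of all tested genes, 1.38% higher and 1.29% lower), and the call was lost in 11 of 16 settings. From week 2 to week 3 limma called 0 of 29 members, beside 0.0449% of all tested genes. At an unadjusted p under 0.05 there were 7 members (24.1%), beside 13.7% of all tested genes. Among the partner lists from week 2 to week 4, collagen receptors had 3 of 8 higher, the integrins Itga1 (2.35) and Itgb1 (1.01) and the endocytic receptor Mrc2 (1.99), and the list of fibril proteoglycans had none of 8 called with a median of -1.64.

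In the knockdown CD8 T cells 5 of the 6 cartilage collagens were again higher, and 21 members of the other groups were lower. Of 33 tested members 6 were higher and 21 lower under the label shMogat1, 81.8% beside 42.8% of all 13742 tested genes (16.6% higher, 26.2% lower). The median log2 difference was 2.19 for the cartilage, -0.61 for the fibrillar, -0.66 for the basement membrane and -0.41 for the other collagens, beside -0.05 for all genes. Median-of-ratios rescaling moved the higher share of all called genes from 38.8% to 50.2% and left 6 members higher and 20 lower. Col9a1 was at 0.0337, 0.0928 and 0.10 TPM in shCTRL against 8.23, 7.66 and 7.44 in shMogat1 (log2 3.03), Col2a1 at 0.33, 0.47 and 0.53 against 10.4, 8.79 and 9.84 (log2 2.89), and Col11a1 at 1.51, 1.10 and 1.14 against 9.47, 8.62 and 8.81 (log2 2.15). Col9a2 (2.23) and Col9a3 (1.51) were higher too, with no overlap for any of the 5. When any shMogat1 library was left out, 2 members remained higher, since Col2a1, Col9a1, Col9a2 and Col17a1 then dropped below the filter. Col11a2, at 8.93, 8.43 and 8.31 against 9.27, 9.43 and 9.32 TPM, did not pass (log2 0.11, adjusted p = 0.194). The sixth higher member was Col17a1, at 0.78, 0.85 and 0.76 against 1.44, 1.503 and 1.68 TPM (log2 0.4998), a call lost in 1 of the 8 settings in which it passed the filter. Col2a1, Col9a1, Col9a2 and Col17a1 passed the filter through shMogat1 alone, and Col6a6 through shCTRL alone, so the counts and medians above describe the members and support nothing.

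Col3a1 and the type VI chains Col6a1 and Col6a2 fell. Col3a1 was at 788, 766 and 757 TPM in shCTRL and 397, 369.6 and 382 in shMogat1 (log2 -1.01, SE 0.03, adjusted p = 8.34e-07). Col6a1 went from 196, 194 and 196 to 95.5, 95.7 and 94.1 TPM (log2 -1.03), and Col6a2 from 72.0, 75.2 and 74.5 to 37.6, 40.0 and 38.1 (log2 -0.92). Col4a1 (-0.66) and Col4a2 (-0.68) kept ratios of 1.36 to 1.49 between them. Col1a1 did not pass, at 196, 176 and 191 against 179, 172 and 172 TPM (log2 -0.10, adjusted p = 0.108). Col1a2, at 187, 187 and 189.5 against 178, 167 and 165 TPM, fell by 0.14 (adjusted p = 0.0152). That call was lost in 5 of 11 alternative settings, among them median-of-ratios rescaling (-0.088). In this table Col1a2 was above its level in the tumor cells of the same set, at 777% of their mean in shCTRL and 228% in shMogat1, and Col1a1 averaged 187.5 and 174.5 TPM against 72.9 and 99.2 there.

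Markers moved along with these groups. In the knockdown CD8 T cells 8 of 10 luminal markers were higher under shMogat1 and 1 lower (median log2 1.69, summed TPM 94.3 to 101 in shCTRL and 229 to 232 in shMogat1), and 9 of 12 fibroblast markers were lower and none higher (median -0.75, summed TPM 2109 to 2191 and 1142 to 1170). The luminal markers Cldn3, Cldn7, Elf3 and Esrp1 passed the filter through shMogat1 alone. The cartilage collagens of the shMogat1 arm stood at a median of 81.9% of their tumor level over 5 genes, from 62.7% (Col11a1) to 99.7% (Col9a3), and 5 luminal markers at a median of 83.6%, from 11.9% (Krt18) to 292% (Cdh1). The fibrillar collagens stood at 56.8% in shCTRL and 38.4% in shMogat1, and the basement membrane collagens at 21.8% and 13.5%. Macrophage markers, which CD8 T cells should lack, were at 658% and 370.5% of their tumor level. How far carried-over tumor and stromal RNA sets these collagen differences was not tested. The partner lists moved mostly down: 10 of 13 fibril proteoglycans (Dcn, -2.28; Aspn, -1.85), 13 of 17 degradation genes (Mmp2, -1.95; Timp3, -1.57), 13 of 19 chain modification genes and 5 of 5 procollagen processing genes were lower. No fibril proteoglycan and no procollagen processing gene was higher, and 1 gene of each of the other 2 lists was.

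**Figure D5:**
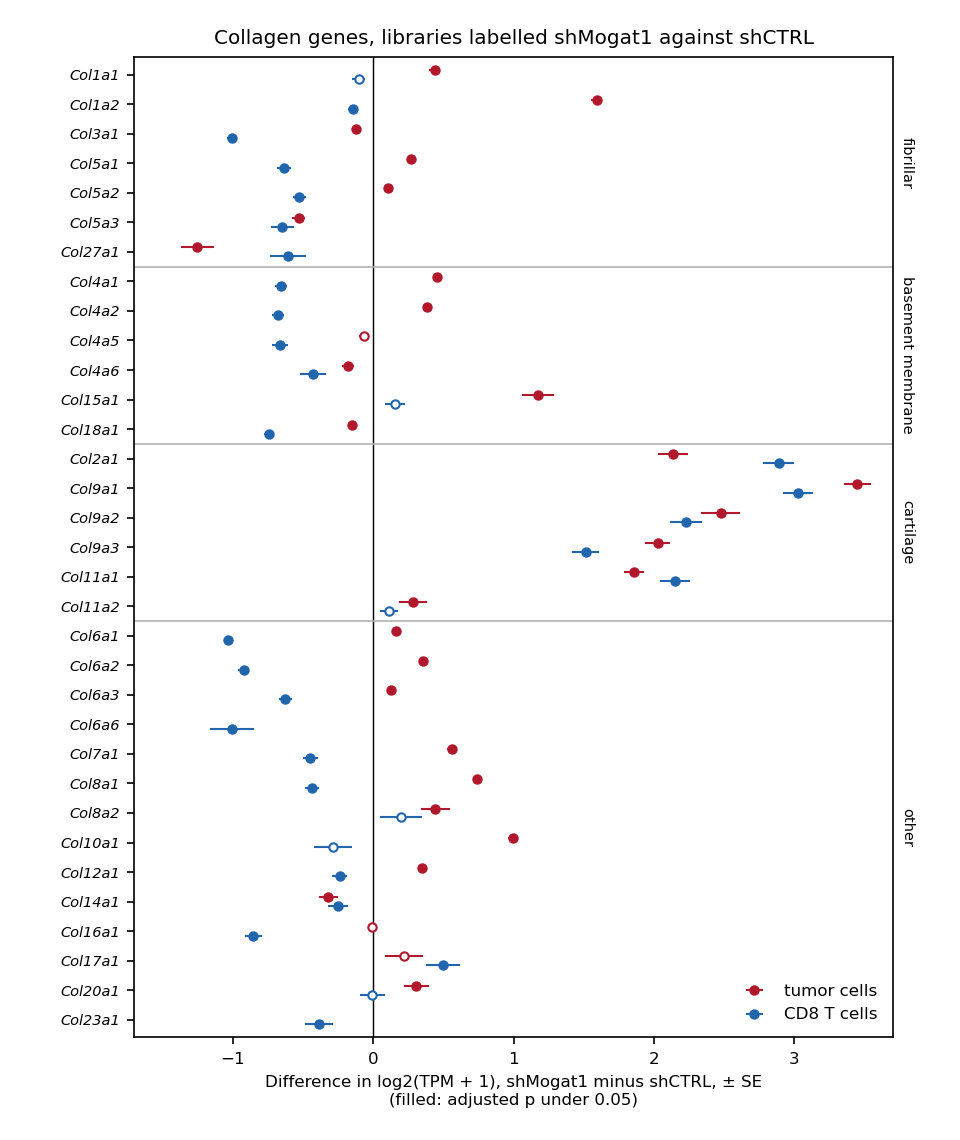
Difference in log2(TPM + 1), shMogat1 minus shCTRL, with its standard error (horizontal axis) for each collagen gene past the filter (vertical axis), in tumor cells (red) and CD8 T cells (blue), filled where the adjusted p is under 0.05. The cartilage genes other than Col11a2 lie between 1.51 and 3.45 in both cell types, while most other members are above 0 in tumor cells and below 0 in CD8 T cells.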

How the data were processed

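Messenger RNA was measured in 2 cell types, tumor cells and CD8 T cells, over weeks 2, 3 and 4 and in shCTRL and shMogat1 xenografts. The authors deposited TPM values, 1 table per cell type and experiment. Per the submitters' processing notes, FastQC, Trim Galore and HISAT2 were used with mm10; the counter, annotation and gene lengths are not given in the sources used here. From each of the tables, 27 rows with dates in place of gene symbols were left out, which held at most 0.184% of a library's TPM.

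Each table was fitted on its own with limma 3.58.1 in R 4.3.3 (lmFit, eBayes with trend) on log2(TPM + 1), over genes with at least 1 TPM in at least 3 libraries; such log2 differences understate the change of low genes. P-values are two-sided and Benjamini-Hochberg adjusted over all tested genes, and called means an adjusted p under 0.05. The scripts were tested on simulated data. Sums, ratios and figures were made with Python 3.11.15, pandas 2.3.3, numpy 2.4.6 and matplotlib 3.10.9. TPM keep no depth, so precision rests on the 3 or 4 libraries per group.

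Members and lists were chosen with earlier results of these data known. Values in each library are given for members called between weeks 2 and 4 or in the knockdown tumor cells (up to 12 per direction), the 8 highest of each tumor table, the head-to-head type IV genes, the cartilage members, and in CD8 T cells the called members and the 5 highest; partner lists name up to 3 called genes. In the text some of these are given by range or difference alone. Alternatives were a pseudocount of 0.1, no filter, median-of-ratios rescaling, quantile normalization, a replicate block, each library left out, only the compared weeks fitted, and, chosen after seeing the data, a pair of libraries left out.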

Additional observations from a re-analysis of the deposited data

Results flagged for a closer look

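In 3 of 76 collagen gene and group pairs with 4 libraries, 1 library stood far from the others (Dixon's test at the 95% level), where chance gives about 1 in 20. At week 4 Col4a5 was at 76.4 TPM in tumor replicate 4, beside 59.6 to 61.7 in the other libraries. Col6a1 was at 149 TPM in tumor replicate 1, beside 264.9 to 287, and Col6a2 at 74.4 TPM in the same library, beside 151 to 162.5.

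For 11 members every shMogat1 library lay above every shCTRL library in tumor cells and below in CD8 T cells. How many of all genes do the same was not counted, so this is not read as a trait of collagens. Of all tested genes, 54.5% were called in the tumor cells and 42.8% in the CD8 T cells. The difference between the cell types was not tested, since the tables were scaled separately. The log2 differences in tumor cells and in CD8 T cells were 1.59 and -0.14 for Col1a2, 0.45 and -0.66 for Col4a1, 0.38 and -0.68 for Col4a2, and 0.27 and -0.63 for Col5a1. They were 0.11 and -0.52 for Col5a2, 0.16 and -1.03 for Col6a1, 0.35 and -0.92 for Col6a2, and 0.13 and -0.62 for Col6a3. Col7a1 had 0.56 and -0.45, Col8a1 0.74 and -0.44, and Col12a1 0.35 and -0.24.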

How the results depend on the processing

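For single genes, 2359 alternative values kept their direction and their side of the threshold, 212 lost the call, 16 gained it and 19 turned in sign. Of the counts of called collagens 97 stayed within 1.5 times and 27 did not, all in the week comparisons; the cause was not tested. With a library left out in turn, the called collagens ranged from 9 to 23 (week 4 against week 2), 8 to 21 (week 3 against week 2) and 9 to 14 (week 4 against week 3) in tumor cells, and from 0 to 4, 0 to 0 and 0 to 2 in CD8 T cells. In the knockdown comparison they ranged from 23 to 27 in tumor cells and from 21 to 26 in CD8 T cells. Calls over all genes ranged from 5278 to 7765, 1371 to 5751 and 1251 to 3580 in tumor cells over the weeks. In CD8 T cells they ranged from 928 to 3115, 5 to 10 and 46 to 630. In the knockdown they ranged from 5842 to 6369 in tumor cells and from 4620 to 5465 in CD8 T cells. With both deviating libraries out, 24 and 26 tumor members were called at week 4 and week 3 against week 2. Calls over all genes were then 7731 and 5412. In CD8 T cells week 4 against week 2 gave 0 calls with the corresponding pair out, 0 without a filter, 1 with only the compared weeks fitted and 6 after quantile normalization, and week 4 against week 3 gave 0, 0, 0 and 2. Calls over all genes in these settings were 500, 1647, 1333 and 2716, and 12, 234, 266 and 605.

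Turned signs were as follows. In tumor cells from week 2 to week 4, Col2a1 ranged from -0.33 to 0.24 with a library left out (0.24 with both out), Col6a1 from -1.16 to 0.23 (0.23) and Col6a2 from -0.86 to 0.77 (0.77). Col11a1 ranged from -0.021 to 0.11 from week 3 to week 4, and Col3a1 in the knockdown was 0.0045 after quantile normalization. In CD8 T cells Col11a2 from week 2 to week 3 ranged from -0.15 to 0.069 (0.062 with both out). Col9a2 from week 3 to week 4 ranged from -0.43 to 0.24 (0.24 with both out) and was 4.007e-04 after median-of-ratios rescaling and 0.038 after quantile normalization.

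The labels give the groups shared replicate numbers, 2 to 4 per comparison. Deviations from the group mean were correlated between libraries of the compared groups. In no comparison was more than 1 same-numbered pair each other's closest match. So few numbers cannot decide whether same-numbered libraries were paired. With the replicate number as a block, called collagens were 9, 10 and 9 in tumor cells (week 4 against 2, 3 against 2, 4 against 3), 1, 0 and 0 in CD8 T cells, and 27 and 20 in the knockdown tumor and CD8 T cells. Calls over all genes, in the same order, were 5885, 2408 and 1470, then 1422, 0 and 3, and then 6709 and 4003. TPM keep no depth, so what depth limits could not be assessed.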
